A study of Mus musculus with 3 samples.

Results

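The regions described here are places on the numbered mouse chromosomes where a peak of tagged NUR77 was called in all 3 replicates and where no other such region of at least 2 replicates lay near. They were found in the authors' deposited table of intervals seen in at least 2 of 3 replicates. Touching intervals were joined into regions, and a region was kept if it held an interval named for all 3 replicates and if no other region centre lay within 12.5 kb of its own centre. Of the 9800 regions of the series, 2893 met this rule. They are called isolated regions below, and the 1658 regions of all 3 replicates on the same chromosomes that had another centre within 12.5 kb are called neighboured regions.

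The series holds 1 group of 3 chromatin immunoprecipitation sequencing (ChIP-seq) samples. All were RAW264.7 cells, an established mouse macrophage line, made stable for pINDUCER20b-HA-NUR77, a doxycycline-inducible construct that encodes NUR77 with an HA epitope tag. Each replicate came from 6 dishes given 1 µg/mL doxycycline for 18 h, fixed with both di(N-succinimidyl) glutarate and formaldehyde, sheared to fragments of about 200 bp and precipitated with an antibody against the tag. The receptor was therefore overexpressed, the labels do not say whether the line is 1 clone, and uninduced, untagged or control-antibody samples were not analysed here, so whether a given peak reflects NUR77 binding was not tested. The lists hold peaks and no expression values, so the cell type was not checked against marker genes.

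NUR77, encoded by Nr4a1, is an orphan nuclear receptor of the NR4A family. It is an immediate early transcription factor that binds DNA through a pair of zinc fingers, as a monomer, as a dimer with itself or a family member, or as a heterodimer with the retinoid X receptor. In macrophages it is rapidly induced by inflammatory stimuli and is known for restraining inflammatory gene expression. Nuclear receptors commonly occupy enhancers, which often lie in groups, so a site that stands alone can be examined without the overlap of signal from adjacent sites. The series' title places the binding data in a study of how Nur77 shapes macrophage metabolism and inflammation.

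The list of replicate 2 was by far the longest, at 37307 peaks, against 6777 for replicate 1 and 8862 for replicate 3. Each isolated region held exactly 1 peak of each list. The 2893 regions thus took up 42.7% of the replicate 1 list, 7.75% of the replicate 2 list and 32.6% of the replicate 3 list. Read counts are not part of these files, so the depth behind each peak is unknown.

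Isolation was about as frequent among regions of all 3 replicates as among regions of only 2. Of the 4551 regions of all 3 replicates on numbered chromosomes, 63.6% were isolated (95% Wilson interval 62.2 to 65.0, counting error only). Of the 4935 regions of only 2 replicates the share was 64.6% (63.3 to 65.9), and over all 9486 regions on these chromosomes it was 64.1%. The intervals of the first and the second share overlap.

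The rule's limit did not fall at a gap in the data. The closest isolated regions were chr2:78876447-78876898 and chr9:78298598-78299049 (mm9), each with another centre at 12524 bp, followed by chr3:14880320-14880717 at 12536.5 bp and chr15:8278075-8278526 at 12549 bp. Just on the other side of the limit, chr14:103762215-103762718 and chr14:103774769-103775118 were each other's neighbours at 12477 bp, chr3:148989491-148990069 had one at 12463.5 bp and chr16:20085621-20086102 at 12446.5 bp. The distribution of nearest distances runs through the limit without a break.

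**Figure D1:**
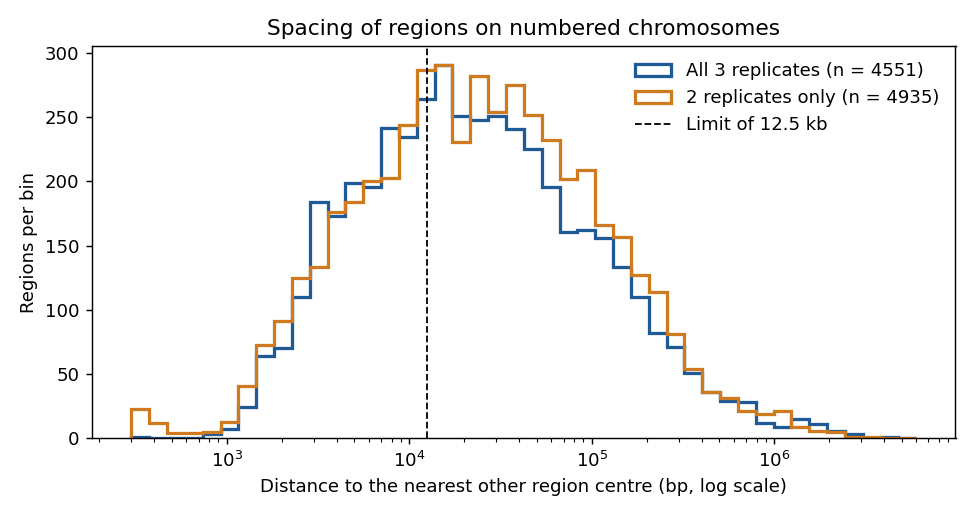
Histogram of the distance from each region's centre to the nearest other region centre, in bp on a log scale, for regions of all 3 replicates (n = 4551) and of 2 replicates only (n = 4935) on numbered chromosomes. The dashed line is the limit of 12.5 kb, and regions to its right are isolated: 63.6% of the first and 64.6% of the second.

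The isolated regions resembled the neighboured ones in width and build. Their median width was 450 bp, with quartiles of 396 and 502 bp and extremes of 184 and 1037 bp. Neighboured regions had a median of 452 bp, with quartiles of 398 and 530 bp. Isolated regions of 2 replicates had a median of 300 bp, but such a region is only the stretch that both replicates cover. A region of all 3 replicates also includes flanks covered by 2, so these widths are not like measures. Each isolated region consisted of exactly 3 intervals, a core covered by all 3 replicates and a flank on either side covered by 2. The core had a median width of 302 bp (quartiles 250 and 398) and took up a median of 73.9% of the region (quartiles 60.3 and 84.4). Neighboured regions also had a median of 3 intervals, with a highest of 5, and their core took up a median of 73.5%. In all but 1.07% of isolated regions the width of each of the 3 peaks was a multiple of 50 bp, which limits how finely widths can be compared.

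The replicate 2 peak was mostly the outermost of the 3. In isolated regions the median peak widths of replicates 1, 2 and 3 were 350, 650 and 400 bp. The median over each whole list was 350, 500 and 350 bp. The replicate 2 peak was the widest of the 3 in 98.8% of isolated regions and enclosed both other peaks in 87.1% (85.8 to 88.3). In neighboured regions it enclosed both in 84.6% (82.7 to 86.2). The replicate 1 peak lay inside both others in 30.2% of isolated regions and the replicate 3 peak in 7.95%. Measured from the region's centre, the median borders were at -185 and 184 bp in replicate 1, at -328 and 324 bp in replicate 2 and at -205.5 and 206.5 bp in replicate 3.

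**Figure D2:**
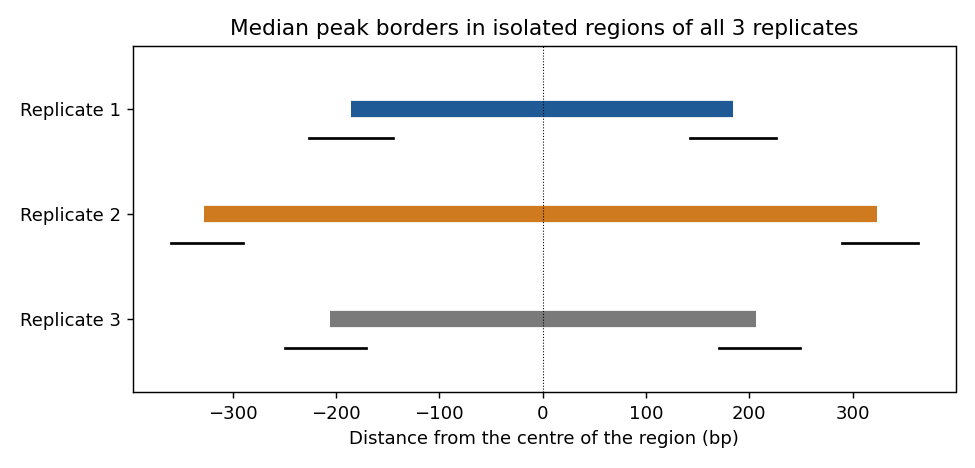
Median left and right border of the peak of each replicate, as distance in bp from the centre of the region, over the 2893 isolated regions. Coloured bars join the medians, and the thin black lines below them span the quartiles of each border. The replicate 2 bar, from -328 to 324 bp, extends beyond the other bars on both sides.

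The midpoints of the 3 peaks, called centres here, lay close together. The rule requires the 3 peaks to share an interval, which limits how far apart their centres can lie. In isolated regions the peak centres of replicates 1 and 2 lay a median of 36 bp apart, those of replicates 1 and 3 44 bp, and those of replicates 2 and 3 33 bp. These distances are shorter than the sheared fragments. Neighboured regions gave 39, 46 and 32 bp. In the same order of pairs, the centres were over 100 bp apart in 12.0%, 15.3% and 9.96% of isolated regions.

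The widest isolated region, chr13:111631633-111632669, was 1037 bp wide with a core of only 263 bp, and its peaks measured 450, 1300 and 850 bp in replicates 1, 2 and 3. The next widest, chr10:63485343-63486316 with 974 bp and chr16:85114253-85115202 with 950 bp, had cores of 226 and 150 bp. In all 3 of these the replicate 2 peak was wide, at 1200 to 1300 bp. The narrowest was chr8:109779176-109779359 with 184 bp and a core of 66 bp, followed by chr11:117119287-117119483 with 197 bp and chr2:121274797-121274996 with 200 bp. Their replicate 2 peaks were 500 to 600 bp wide, while those of replicates 1 and 3 were 100 to 200 bp.

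The peak score is the authors' own value, on a scale that is not stated. It was used only to rank a peak within its own list, as a percentile in which 100 is the best. The median score percentiles of isolated regions in replicates 1, 2 and 3 were 57.6, 91.1 and 63.4, with a mean over replicates of 70.7 ± 17.9 (SD, n = 3). The high value in replicate 2 stands beside its list of 37307 peaks, of which 27717 overlapped no other list. Being in all 3 lists is part of the rule, so the level of these percentiles is a description. In 50.7% of isolated regions the percentile was at least 50 in all 3 lists, and in 8.12% it was at least 90 in all 3. In 26.7% it was under 50 in both replicates 1 and 3, while it was under 50 in replicate 2 in only 2.80%.

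Among regions of all 3 replicates, the isolated regions ranked below the neighboured ones in every list. The isolated and neighboured medians were 57.6 and 65.0 for replicate 1, 91.1 and 92.1 for replicate 2, and 63.4 and 70.4 for replicate 3. The difference, isolated minus neighboured, was -7.43, -0.93 and -6.95 percentile points, on average -5.10 ± 3.62 (SD, n = 3). It exceeded the SD between replicates, although replicate 2 contributed little to it. It was smaller than the SD with a limit of 5 kb (-2.32 ± 2.52, n = 3), without replicate 1 (-4.94 ± 5.29, n = 2) and without replicate 3 (-4.39 ± 5.50, n = 2). An exact sign-flip test over 3 replicates cannot give a p below 0.25, so no p is given. Both groups had passed the same requirement of all 3 replicates, but the lists that set the neighbours also set the scores.

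Replicate 2 compresses these regions into the top of its long list, so ranks were also taken among the 4551 regions of all 3 replicates alone, a scale chosen after seeing the data. On this scale, where the middle of each list is 50 by construction, isolated regions had medians of 46.7, 48.7 and 46.6 in replicates 1, 2 and 3, and neighboured regions 55.6, 52.1 and 55.8. The difference was then -7.21 ± 3.29 (SD, n = 3), with -8.93, -3.42 and -9.29 in the 3 lists. Within single chromosomes, isolated regions had the lower median in 19 of 19 chromosomes in replicate 1, 13 in replicate 2 and 17 in replicate 3, and in 12 chromosomes in all 3 lists at once. With a limit of 5 kb in place of 12.5 kb the difference in replicate 2 was 0.58 on the scale of whole lists, so its sign there depended on the limit.

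**Figure D3:**
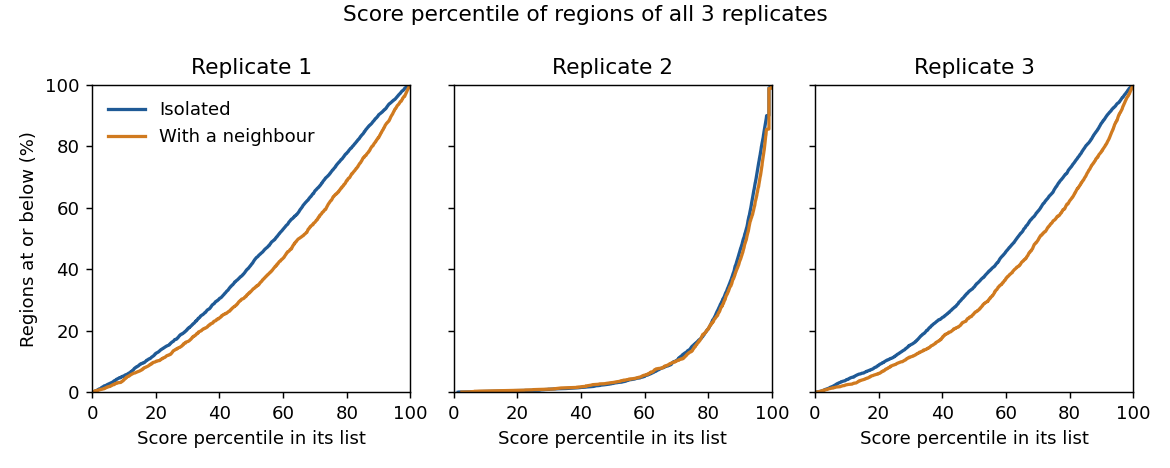
Cumulative share of regions (%, vertical) at or below each score percentile within the replicate's own list (horizontal), for isolated regions (n = 2893) and neighboured regions (n = 1658). The isolated curve lies to the left in replicates 1 and 3, with medians of 57.6 against 65.0 and 63.4 against 70.4, while in replicate 2 the curves nearly coincide, with 91.1 against 92.1.

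Isolated regions were scarcest among the best-scored regions. With the 4551 regions divided into 10 equal groups by their mean percentile on this scale, 67.5% (63.1 to 71.7) of the lowest-scored group were isolated and 49.9% (45.3 to 54.5) of the highest. The share stayed between 62.0% and 69.9% in groups 1 to 8, and was 57.4% (52.8 to 61.8) in group 9. When regions were ordered by the score of a single list, the highest group held 50.8% isolated regions for replicate 1, 54.7% for replicate 2 and 47.9% for replicate 3. The lowest group held 68.6%, 63.8% and 69.5% for the same lists. For comparison, 63.6% was the share over all of these regions.

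**Figure D4:**
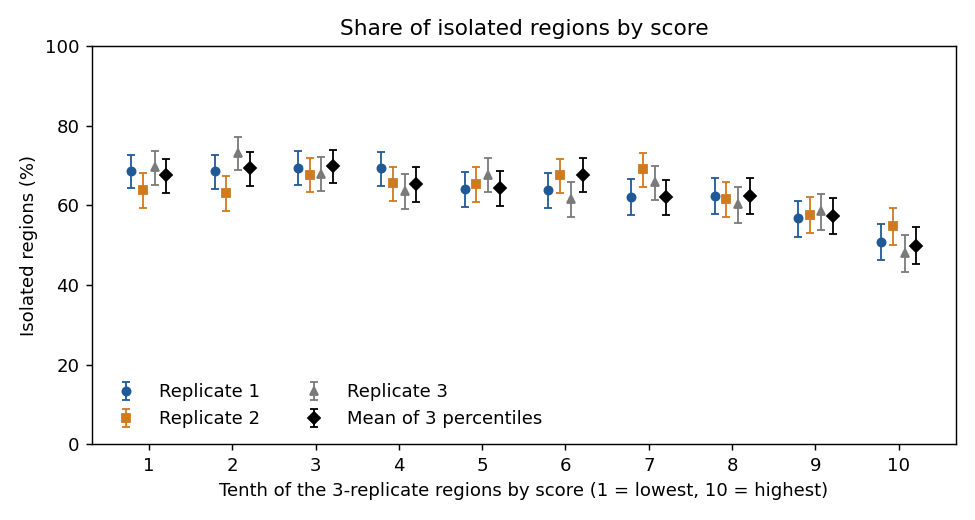
Share of isolated regions (%) in each of 10 equal groups of the 4551 regions of all 3 replicates, ordered by score in 1 replicate or by the mean of the 3 percentiles. Points are shares and bars 95% Wilson intervals. All 4 orderings are lowest in the highest-scored group, at 47.9% to 54.7%.

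In the best 25 and 100 regions the share was lower than in the highest group above, but the intervals overlapped. Here regions were ordered by mean rank over the 3 lists, not by mean percentile. In this order 7 of the best 25 regions of all 3 replicates were isolated (28.0%, 14.3 to 47.6) and 43 of the best 100 (43.0%, 33.7 to 52.8). The counts were 245 of the best 500 (49.0%, 44.6 to 53.4) and 545 of the best 1000 (54.5%, 51.4 to 57.6). The tie in replicate 2 limits this order: 549 of its peaks shared the score 958.844 and therefore rank 335. Of the isolated regions, 9.06% (8.06 to 10.2) were at this tie, against 13.3% (11.7 to 15.0) of the neighboured regions.

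The 12 isolated regions with the lowest mean rank were all at that tie, which leaves replicates 1 and 3 to set their order. First came chr9:75044148-75044749, which ranked 15 in replicate 1 and 10 in replicate 3 and had its nearest region, of 2 replicates, 25.02 kb away. It was 602 bp wide with a core of 598 bp, so its peaks in replicates 1 and 3, 600 bp each, nearly coincided. The second, chr8:109793160-109793675, ranked 22 and 28. Its core was only 191 bp, beside a replicate 1 peak of 250 bp and a replicate 3 peak of 550 bp. Its nearest neighbour, 14.15 kb away, was the narrowest isolated region of all, at chr8:109779176-109779359, which ranked 3745 in replicate 1 and 5646 in replicate 3. A pair of isolated regions just beyond the limit from each other could thus differ widely in score and width.

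The next of the 12 lay on 5 chromosomes. Region chr3:106592820-106593369 ranked 18 and 36 in replicates 1 and 3, chr10:16754417-16755142 ranked 41 and 19, and chr5:73154076-73154703 ranked 36 and 39. Region chr16:91522521-91523220 ranked 40 and 41, and chr7:31107791-31108390 ranked 45 and 38. These 5 regions were 550 to 726 bp wide, all above the median of 450 bp, and had their nearest region 13.5 to 71.6 kb away.

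The replicate 1 ranks of the other 5 ran from 33 to 67, and their replicate 3 ranks from 40 to 76. They were chr13:37382483-37383082, chr1:145933224-145933823, chr10:98342693-98343266, chr16:75877353-75877952 and chr8:130602576-130603159, with widths of 574 to 600 bp. The most remote of the 12 was chr1:145933224-145933823, 79.7 kb from its nearest region. Of the 12, 4 had no further peak of any list within 12.5 kb of the centre, namely those on chromosomes 5, 13 and 1 and the region at chr16:91522521-91523220.

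Better-ranked isolated regions were wider and more sharply placed. With the 2893 regions divided into 5 equal groups by mean percentile, the median width was 368 bp in the lowest group and rose through 400, 450 and 472 bp to 550 bp in the highest. The median core rose from 248 to 447 bp. The median distance between the centres of replicates 1 and 3 fell from 51 to 31 bp over the same groups, that of replicates 1 and 2 from 43 to 28 bp, and that of replicates 2 and 3 from 45 to 28 bp. The width of a called peak and its score come from the same reads, so these measures are not independent.

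The lists ranked the isolated regions alike but not identically. Across the 2893 regions Spearman's rho between the scores of replicates 1 and 2 was 0.65, between replicates 1 and 3 it was 0.77, and between replicates 2 and 3 it was 0.70. Across neighboured regions it was 0.71, 0.83 and 0.77. These values describe regions, which share 3 libraries and are not replicates. Per region, the highest and lowest of the 3 percentiles lay a median of 35.2 points apart. Without replicate 2, when 3666 regions of the other lists were isolated, it was 10.5 points. It was 28.7 points without replicate 1 and 30.7 without replicate 3. These last 3 values are ranges over 2 lists in other sets of regions, so they are not directly comparable with 35.2. Ranked among regions of all 3 replicates, the median spread was 21.9 points, and from the lowest-ranked to the best-ranked of the 5 groups it was 18.3, 31.2, 29.9, 23.6 and 9.05 points.

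On the scale of whole lists, the 5 isolated regions that the lists ranked most differently all stood high in replicate 2. Only 2.80% of isolated regions were under 50 in replicate 2 on that scale, so this pattern was close to given. At chr12:67835417-67835824 the percentiles were 1.65, 96.7 and 46.0 in replicates 1, 2 and 3. At chr14:106150917-106151268 they were 38.7, 97.7 and 2.74, and the replicate 2 peak was 1150 bp wide against 400 and 200 bp. At chr10:57481467-57481816 they were 1.65, 95.4 and 34.5. The other two, chr3:101117120-101117517 and chr14:69707365-69707718, had 96.5 and 93.5 in replicate 2 and at most 34.1 in the other lists. In each of these regions a peak low in at least 1 of the short lists met a peak high in the long list. Ranked among regions of all 3 replicates, the largest spread was 94.9 points, and the pattern did not hold throughout. On that scale chr2:98502649-98503046 had 97.7, 2.82 and 37.4, with replicate 2 the lowest.

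At the other end, the 5 isolated regions with the highest mean rank were near the bottom of replicate 2. The last was chr8:107088760-107089075, with percentiles of 8.03, 1.47 and 20.5 in replicates 1, 2 and 3. Region chr15:62401077-62401326 had 41.5, 1.63 and 4.18. The remaining 3, chr3:141957768-141958117, chr4:92221867-92222336 and chr5:86853623-86853825, had 4.30, 5.16 and 7.61 in replicate 2. The highest percentile of the 5 in any list was 41.5. The mean rank gives most weight to replicate 2, whose ranks run to 37307.

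The nearest other region lay a median of 44.9 kb from an isolated region, with quartiles of 22.8 and 109 kb. The rule sets the lower bound of this distribution. The nearest region of all 3 replicates lay a median of 87.3 kb away. The nearest neighbour was itself a region of all 3 replicates in 50.5% (48.6 to 52.3) of cases, against 47.0% (44.6 to 49.4) for neighboured regions. For comparison, 4551 of the 9486 regions on these chromosomes were of all 3 replicates. At wider limits, 2080 of the 2893 (71.9%) still had no other centre within 25 kb, 1335 (46.1%) within 50 kb, 784 (27.1%) within 100 kb, 281 (9.71%) within 250 kb, 116 (4.01%) within 500 kb and 44 (1.52%) within 1000 kb. Without replicate 2, when only regions common to replicates 1 and 3 remained, the median distance was 76.8 kb.

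The 44 regions with no other region within 1 Mb lay on 17 chromosomes. Among regions of all 3 replicates their median percentiles were 38.7, 49.2 and 36.8 in replicates 1, 2 and 3, against 46.8, 48.7 and 46.8 for the other 2849. Their median width was 475.5 bp against 450 bp. An unshared replicate 2 peak lay within 12.5 kb of 15 of them (34.1%), against 1638 of the others (57.5%). Of the 44, 4 held a peak whose width was not a multiple of 50 bp, against 27 of the 2849 others (0.948%).

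The most remote region, chr12:25840375-25840813, had its nearest region 4.46 Mb away, with percentiles of 50.5, 87.4 and 29.4 in replicates 1, 2 and 3. At chr2:98502649-98503046 the distance was 3.04 Mb and the percentiles were 98.0, 49.3 and 56.0. At chr6:103598996-103599395 it was 2.79 Mb, with 93.6, 37.2 and 89.3. These regions on chromosomes 2 and 6 ranked 134 and 436 in replicate 1 but lay below the middle of the replicate 2 list. Their replicate 2 peaks, of 350 and 418 bp, were narrower than the median of 650 bp. Regions prone to artefact signal were not filtered out here, and whether these are such regions was not tested. Region chr3:4907468-4908019, at 2.61 Mb, was high in all 3 lists, with 83.5, 97.7 and 91.6. Last came chr4:92221867-92222336 at 2.42 Mb, was low in all 3, with 6.03, 5.16 and 21.4, and the nearest other peak of any list was 1636 kb away.

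Isolation in the table did not mean that no other peak had been called nearby. The table leaves out peaks of a single list, so these were not used by the rule. Of the 2893 isolated regions, 1653 (57.1%, 55.3 to 58.9) had within 12.5 kb a replicate 2 peak that overlapped no other list, against 61.9% (59.6 to 64.2) of neighboured regions. For unshared peaks of replicates 1 and 3, which are few, the shares were 2.21% and 2.18% against 6.09% and 7.24%. Just 1 such replicate 2 peak was near 1001 isolated regions, 2 were near 432, 3 near 168, 4 near 45 and 5 near 7. No other peak of any list lay within 12.5 kb of 1203 isolated regions (41.6%, 39.8 to 43.4).

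These strictly lone regions were not the better-scored ones. Their median percentiles among regions of all 3 replicates were 43.3, 45.6 and 43.3 in replicates 1, 2 and 3. Isolated regions with an unshared replicate 2 peak nearby had 48.6, 50.8 and 48.1. Both sets had a median width of 450 bp. The strictly lone regions lay a median of 57.3 kb from the nearest region of the table, against 36.9 kb for those with such a peak nearby. The 2499 unshared replicate 2 peaks near isolated regions had a median percentile of 42.1 within their list, against 38.4 for the other 25218.

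Isolated regions were found on all 19 numbered chromosomes, at 1.17 per Mb over 2472 Mb. The highest densities were 1.63 per Mb on chromosome 11 with 198 regions, 1.51 on chromosome 2 with 275 and 1.48 on chromosome 19 with 91. The lowest were 0.826 on chromosome 18 with 75 regions, 0.879 on chromosome 14 with 110 and 0.925 on chromosome 4 with 144. The mean over chromosomes was 1.17 ± 0.225 (SD over 19 chromosomes, which are not replicates).

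The share of isolated regions among those of all 3 replicates ran from 57.0% (50.2 to 63.6) on chromosome 16 to 75.8% (66.5 to 83.1) on chromosome 18. Chromosome 12, with 75.4% (68.8 to 81.0), was next to chromosome 18, and chromosome 7 followed with 71.0% (64.9 to 76.4). Chromosomes 6 and 13 were near the low end with 57.6% and 57.9%. Across the 19 chromosomes the share was lower where regions of all 3 replicates were denser, with a Spearman rho of -0.50. Both quantities come from the same regions, so they are not independent. The share was 59.6% (54.3 to 64.8) on chromosome 11, which was the densest with 2.72 regions of all 3 replicates per Mb.

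**Figure D5:**
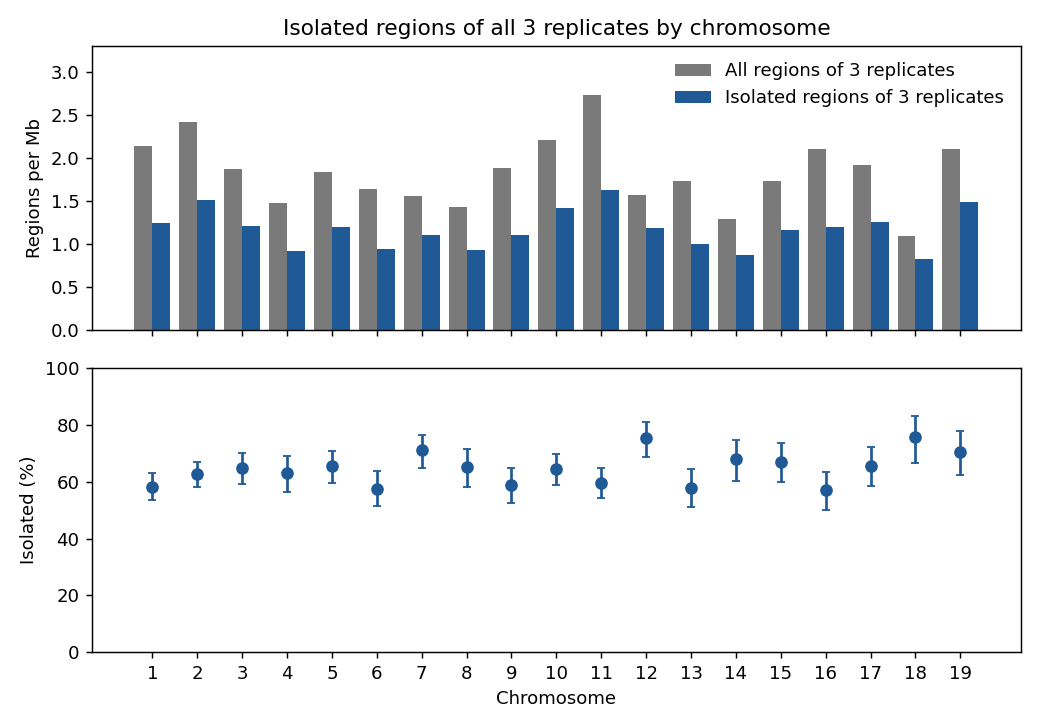
Upper panel, regions of all 3 replicates and isolated regions per Mb of mm9 chromosome length. Lower panel, share of isolated regions (%) with 95% Wilson intervals. Chromosome 11 has the most isolated regions per Mb (1.63), and chromosomes 12 and 18 the highest shares (75.4% and 75.8%).

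Successive isolated regions on a chromosome lay a median of 296 kb apart, with quartiles of 101 and 930 kb. Of the 2874 gaps between them, 676 exceeded 1 Mb and 64 exceeded 5 Mb, and the largest was 14.6 Mb. In the 239 whole windows of 10 Mb the median was 11 isolated regions, with quartiles of 7 and 15. The count ranged from 0 in 3 windows to 37 in the window chr11:100000001-110000000, which held 67 regions of all 3 replicates. In the 101 windows with at least 20 regions of all 3 replicates, the isolated share had a median of 60.6%. It was lowest in chr13:20000001-30000000, with 8 of 27 regions (29.6%), and highest in chr14:50000001-60000000, with 19 of 21 (90.5%). These extremes were picked by their values.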

How the data were processed

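The authors deposited 1 peak list per replicate with the position and score of each peak, and a series table of intervals with replicate names and no score. Peaks were called per replicate. Their names are of the form MACS gives. The build is mm9, per the submitters' processing notes, while aligner, caller version, threshold and treatment of the re-used input reads remain not given in the sources used here, and neither is the scale of the deposited score.

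The table was rebuilt from the lists: all 19164 intervals had the same borders, and all replicate names matched after swapping the names of replicates 2 and 3 in the table (13753 as written), so replicate numbers follow the sample titles. This does not affect intervals naming all 3. A region took the best-scored peak of each list that overlapped it by at least 1 bp. Chromosome lengths came from GenomeInfoDb 1.38.1. Shares carry 95% Wilson intervals. Code ran in Python 3.11.15 with numpy 2.4.6, scipy 1.17.1, pandas 2.3.3 and matplotlib 3.10.9, and was tested on simulated data.

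Named regions are the 12 isolated regions with the lowest mean rank, the 5 with the highest, the 5 most remote, the 4 on each side of the limit, the 3 widest, the 3 narrowest and the 5 with the largest spread of percentile. The members and this rule were chosen with earlier results of these data known. Alternatives were limits of 5 and 50 kb, distance between borders, the higher-scored 50% of each list, addition of chromosome X, the peak with the largest overlap, and leaving out each replicate. A genome or annotation of mm9 was not used here, and coordinates were not converted, so no gene or sequence is assigned to a region.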

Additional observations from a re-analysis of the deposited data

How the results depend on the processing

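Isolated regions ranked below neighboured ones on average under every alternative run, with mean differences of -7.21 to -2.32 percentile points. The difference was smaller than its SD between replicates at 5 kb, without replicate 1 and without replicate 3. With a limit of 5 kb there were 3807 isolated regions, 83.7% of those of all 3 replicates, with a spread of 33.6 points and a nearest region at 29.3 kb. With a limit of 50 kb there were 1335 (29.3%, 0.54 per Mb), with a spread of 38.1 points, a nearest region at 118 kb and an unshared replicate 2 peak near 48.5%. The higher-scored 50% of each list gave 1838 (74.2%, 0.743 per Mb), with a median width of 500 bp, a spread of 18.8 points, a nearest region at 68.3 kb and an unshared replicate 2 peak near 42.7%. The count was thus lower and the share higher, and the cause was not tested. Ranked among regions of all 3 replicates, an alternative added after seeing the data, the mean percentile was 47.3 and the spread 21.9, as the scale is centred on 50. Distance between borders and addition of chromosome X moved no result beyond its interval or SD, where it had one. The count and the density have neither. They were 2848 and 1.15 per Mb with borders, and 2969 and 1.13 per Mb with chromosome X, against 2893 and 1.17. Taking the peak with the largest overlap could not change the values of isolated regions, since each held exactly 1 peak of each list.

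Leaving out each replicate requires only 2 lists, and gave 3666 to 5520 isolated regions (70.5% to 77.8%, 1.48 to 2.23 per Mb), most without replicate 1 and fewest without replicate 2. The median width, now of the stretch covered by both remaining lists, was 300 to 350 bp. The nearest region was at 51.3 to 76.8 kb, and the centre distance was 41 to 45 bp. The mean percentile was 61.8 to 68.6 and the spread 10.5 to 30.7 points. The difference in percentile was -7.00 to -4.39. An unshared replicate 2 peak was near 59.2% without replicate 1 and near 62.7% without replicate 3. Unshared then means no overlap with the only other list left, so these shares are not directly comparable with 57.1%. For the other moved values the cause was not tested either. No paired analysis was possible because the samples form a single group. Sequencing depth is unknown, so a region without a called neighbour is not shown to lack one.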

Other observations

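Chromosome X, which the rule leaves out, held 125 regions of all 3 replicates, of which 76 were isolated (60.8%, 95% Wilson interval 52.0 to 68.9). This was 0.456 isolated regions per Mb, below the 0.826 of chromosome 18, the sparsest numbered chromosome. The isolated share on X was thus within the range of the numbered chromosomes, while the density was not. Their median width was 523 bp, their nearest region lay a median of 67.5 kb away, and their median score percentiles were 53.2, 88.1 and 58.3 in replicates 1, 2 and 3.

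The 3 windows of 10 Mb without an isolated region differed in what else they held. At chr4:30000001-40000000 there were 14 regions, 3 of them with all 3 replicates, each with a neighbour within 12.5 kb. At chr14:110000001-120000000 there were 5 regions, none with all 3 replicates. At chr7:40000001-50000000 there was no region at all. Whether these windows contain unmappable sequence was not tested.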
